A study of Drosophila melanogaster with 2 samples.

Results

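Nuclear genes for subunits of the oxidative phosphorylation complexes were taken as the protein-coding genes whose symbol starts with ND-, Sdh, UQCR-, COX followed by a digit from 4 to 8, or ATPsyn. This gave 88 of the 13945 protein-coding genes on the main chromosome arms of the Drosophila melanogaster dm6 genome. Of these, 24 carry a trailing L in the symbol, with or without a digit, which names a gene as a copy of a subunit gene. The other 64 are called main genes here, and they include ND-MNLL, where the letters belong to the subunit's own name. The rule reads symbols only, so it also took Sdhaf3, which encodes an assembly factor of complex II and not a subunit, and it missed subunits with other symbols, which are described near the end.

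Oxidative phosphorylation takes place in the inner mitochondrial membrane. Complexes I to IV pass electrons from NADH and succinate to oxygen and build a proton gradient, and complex V, the ATP synthase, uses that gradient to make ATP. Most subunits are encoded in the nucleus, a few in mitochondrial DNA, and the nuclear ones are used in nearly every cell. In Drosophila many subunits also have a second gene, often intronless, and such copies are known mainly from the testis. Pho is a sequence-specific DNA-binding protein of the Polycomb group that recruits repressive complexes at developmental genes and is also found at promoters of active genes.

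The data were chromatin immunoprecipitations of Pho from whole embryos of a transgenic line in which Pho carries GFP at its C terminus. Embryos were collected between 0 and 24 h, with males and females pooled, and an antibody against GFP was used. There was 1 group with 2 biological replicates, numbered 3 and 4, each with 1 technical replicate, and no other genotype, stage or treatment. Whether the line keeps an untagged pho gene is not given in the labels, and no library of untagged embryos was used here. Binding of Pho and precipitation of open promoters in general therefore cannot be told apart, nor can strong binding in a few cells and weak binding in many. With no second condition no difference between groups was tested, and the share of all protein-coding genes is given as the background of each kind of count.

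The authors' optimal list held 4293 peaks, which are the strongest entries of a list of 30000 from the pooled reads. Each replicate had a relaxed list of 30000 entries of its own, in which weak entries include background. The signal value of a peak is the authors' own, its scale differs between libraries, and read depth is unknown, so ranks within a list (1 is the strongest) are given beside it. The optimal peaks ran from 91.9 to 2583 with a median of 145. A gene counted as having a summit when the highest point of a peak lay within 1000 bp of any of its annotated transcript starts.

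An optimal summit was present at 26 of the 88 genes, or 29.5%, beside 26.1% of all protein-coding genes. The main genes and the copies differed in this count. Of the 64 main genes 25 had an optimal summit, or 39.1%, and of the 24 copies 1 did, or 4.17%. Complex IV had the highest share of main genes with a summit, 5 of 8, followed by complex V with 5 of 11. Complex II had 2 of 5, complex III had 2 of 6, and complex I, the largest, had 11 of 34 or 32.4%. Groups this small move by many percentage points with a single gene, and no order among the complexes is read from them.

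The count was lower in the strongest entries of each replicate taken alone. Among the 4293 strongest entries of replicate 3, a summit lay in reach of 23 main genes, or 35.9%, with 26.2% of all protein-coding genes. In those of replicate 4 it was 19 main genes, or 29.7%, with 25.5% of all genes. The same single copy had a summit in both. The share of main genes was above the background in each replicate, by less in replicate 4 than in replicate 3.

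**Figure D1:**
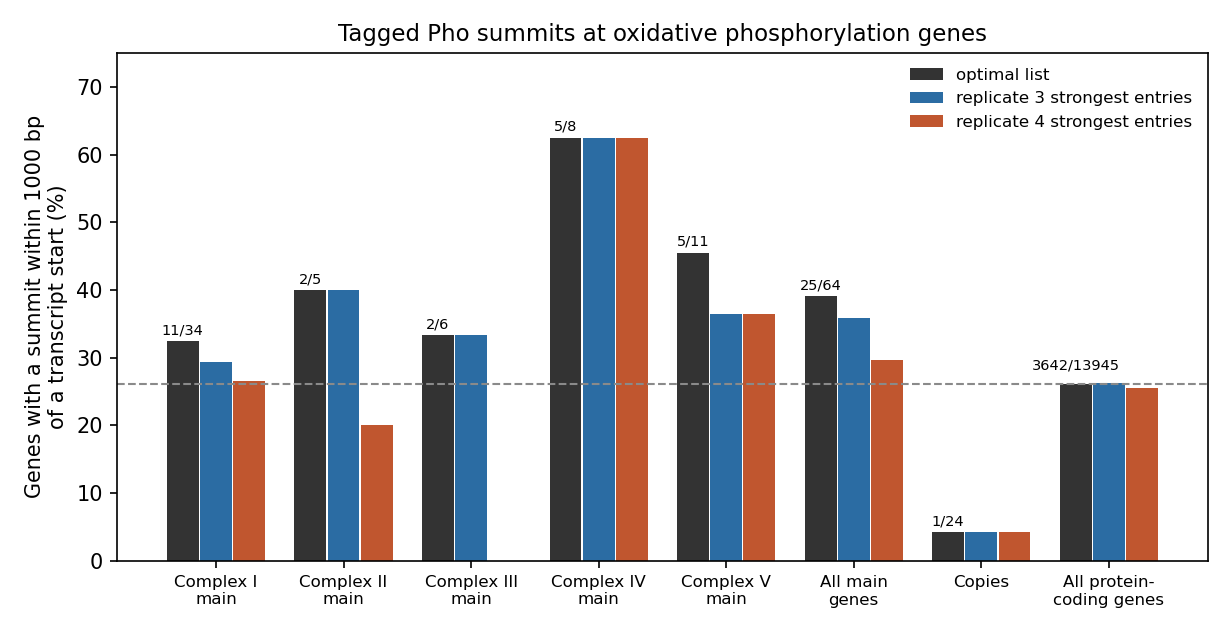
Share of genes with a summit within 1000 bp of a transcript start, in percent, for the main genes of each complex, all main genes, the copies and all protein-coding genes, in the optimal list and in the strongest 4293 entries of each replicate, with the counts of the optimal list above its bars and a dashed line at its share of all genes. Complex IV main genes are at 62.5% in the optimal list and the copies at 4.17%, beside 26.1% of all genes.

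In complex I, which takes electrons from NADH, the accessory subunit genes ND-MWFE and ND-ASHI had the strongest summits, followed by ND-24 and ND-51. ND-24 and ND-51 encode core subunits of the arm that binds NADH. ND-ASHI (FBgn0029888, chrX:6677262-6679118) had a peak at chrX:6679263-6679504 with a signal of 397 and rank 307. Replicate 3 gave it 269 at rank 232 and replicate 4 gave it 128 at rank 495. Its summit lay 254 bp upstream, in an intron of Fum1, which encodes fumarase of the citric acid cycle. The summit was 268 bp from the nearest Fum1 start, so ND-ASHI was the nearer gene. The peak at ND-24 (FBgn0030853, chrX:17632089-17633509) covered chrX:17632067-17632243 with a signal of 318 at rank 508. It had 170 in replicate 3 and 143 in replicate 4, at ranks 640 and 409. At ND-51 (FBgn0031771, chr2L:6060842-6062757) the peak at chr2L:6062783-6062918 had 316 at rank 515, with 181 and 132 in replicates 3 and 4, at ranks 576 and 470. Both replicates thus placed these 3 genes among their strongest entries.

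The 101 bases around the summits of ND-24, ND-51 and ND-ASHI are shown because these are among the strongest summits of complex I and because they are low in G and C. They are read on the strand of the gene from the RefSeq sequence of dm6, 5′ to 3′, and capitals mark a TATAAA word. The share of G and C was 18.8% at ND-24, 25.7% at ND-51 and 28.7% at ND-ASHI, beside a median of 38.1% over the 26 summits.
ND-24, chrX:17632155-17632255, plus strand: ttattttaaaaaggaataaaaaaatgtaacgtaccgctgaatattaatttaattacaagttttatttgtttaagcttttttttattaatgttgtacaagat
ND-51, chr2L:6062821-6062921, minus strand: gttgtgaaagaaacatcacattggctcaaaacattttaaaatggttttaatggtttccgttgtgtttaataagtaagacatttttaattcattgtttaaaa
ND-ASHI, chrX:6679322-6679422, minus strand: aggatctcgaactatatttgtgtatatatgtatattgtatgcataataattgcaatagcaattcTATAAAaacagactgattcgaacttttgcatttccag

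These 3 windows did not hold GCCAT, the core of the known Pho site, on either strand. The ND-24 summit lay in the gene's own intron, between its annotated starts, and the ND-51 summit 114 bp upstream of the nearest start.

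ND-MWFE (FBgn0085468, chr2R:13158666-13160190) carried the strongest optimal summit of any member. Its peak at chr2R:13158366-13158622 had a signal of 512 at rank 166, with 282 in replicate 3 (rank 209) and 232 in replicate 4 (rank 135). The summit lay 181 bp upstream of ND-MWFE and 40 bp from a start of TppII, a peptidase gene, in whose intron it falls. At this position a peak cannot be assigned to one gene or the other from the data.

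The other complex I genes with an optimal summit were ND-SGDH (signal 181, rank 1461), ND-42 (159, rank 1846), ND-B17 (135, rank 2416), ND-20 (106, rank 3463), ND-MNLL (102, rank 3683), ND-13B (96.2, rank 3985) and ND-PDSW (95.1, rank 4050). In replicate 3 ND-SGDH, ND-42 and ND-B17 had 124, 108 and 86.1, and in replicate 4 they had 72.5, 62.7 and 43.8. The summit at ND-42 lay 42 bp from the start of Cchl, which encodes the lyase that attaches heme to cytochrome c. ND-20, a core subunit, had 62.4 in replicate 3 and 42.1 in replicate 4, at ranks 3759 and 3632. The last 3 of these were uneven between replicates. ND-PDSW had 69.2 at rank 3206 in replicate 3 and 28.2 at rank 7155 in replicate 4. ND-MNLL had 68.6 at rank 3254 and 33.2 at rank 5376, and ND-13B had 48.2 at rank 5501 in replicate 3 with no entry within 100 bp in replicate 4. Of the 7 core subunit genes 3 had an optimal summit, and of the 27 accessory genes 8 did, beside 26.1% of all protein-coding genes. With groups this small, neither count is set apart from that share.

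Of the 23 complex I main genes without an optimal summit, 21 had a weaker entry in reach in the pooled list. ND-B17.2 came closest, at rank 4969, then ND-B8 at 5065 and ND-B14.5A at 5492, and ND-AGGG was the weakest at 15006. The core subunit genes ND-49, ND-30, ND-75 and ND-23 were at ranks 6657, 7234, 10554 and 12831. ND-13A had no pooled entry but weak ones in both replicates, at ranks 19989 and 28648. ND-B14.7 had none in any list.

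Complex II, succinate dehydrogenase, links the citric acid cycle to the chain. Both of its optimal summits lay closer to another gene. SdhC (FBgn0037873, chr3R:11208887-11209849), a membrane anchor, had a peak at chr3R:11209961-11210396 with a signal of 155 at rank 1917, and replicates 3 and 4 gave 113 and 61.7 at ranks 1398 and 1980. The summit was 330 bp upstream of SdhC and 68 bp from Tctp.

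The summit near SdhC is shown because it holds a TATCGATA word, in capitals, the site known for the factor Dref at promoters of growth and replication genes. The 101 bases are on the strand of SdhC.
SdhC, chr3R:11210129-11210229, minus strand: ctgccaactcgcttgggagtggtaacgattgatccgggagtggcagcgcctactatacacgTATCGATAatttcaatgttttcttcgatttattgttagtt

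SdhA (FBgn0261439, chr2R:19391863-19395971), the flavoprotein subunit, had a peak at chr2R:19396605-19397040 with a signal of 111 at rank 3232, with 83.2 in replicate 3 at rank 2384 and 25 in replicate 4 at rank 8900. At 852 bp it was the member nearest to the limit of 1000 bp, and the start of cer was only 51 bp from the summit. The first genes outside the limit were UQCR-C2 at 1200 bp, ATPsynD at 1413 bp and ND-39 at 1552 bp. Counting each summit for the nearest gene alone left complex II with 0 of 5. SdhD, the other anchor, and SdhB, the iron-sulfur subunit, had pooled entries at ranks 6882 and 21543. Sdhaf3 had an entry in replicate 3 at rank 13096 and none in the pooled list.

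In complex III, which passes electrons from ubiquinol to cytochrome c, the summits were weak. UQCR-14 (FBgn0030733, chrX:16286288-16286988) had a peak at chrX:16286008-16286443 with a signal of 96.8 at rank 3948 and 65.9 and 37.1 in replicates 3 and 4, at ranks 3473 and 4488. UQCR-Q (FBgn0036728, chr3L:17474761-17476124) had a peak at chr3L:17474803-17475238 with 92.2 at rank 4265, close to the end of the optimal list. Its replicate values were 65.8 at rank 3479 and 29.6 at rank 6607. Replicate 4 ranked both beyond its strongest 4293 entries, and without replicate 3 the complex had 0 of 6. The core proteins UQCR-C2 and UQCR-C1 had pooled entries at ranks 6717 and 21969, and UQCR-11 and UQCR-6.4 at ranks 4810 and 9180.

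Complex IV, cytochrome c oxidase, has small nuclear-encoded subunits around a mitochondrially encoded core. COX5A (FBgn0019624, chr3R:11819359-11820299) had a peak at chr3R:11819461-11819601, in its own intron, with a signal of 280 at rank 647. Its replicate values were 158 at rank 753 and 130 at rank 481. COX6B (FBgn0031066, chrX:19740537-19744335) had a peak at chrX:19744195-19744630 with 264 at rank 722, 150 at rank 828 in replicate 3 and 109 at rank 689 in replicate 4. COX7B (FBgn0040793, chr3L:17425477-17426282) had a peak at chr3L:17425102-17425537 with 155 at rank 1911, and 117 and 47.4 in replicates 3 and 4, at ranks 1302 and 3011. COX5B followed with 145 at rank 2146, from 93.1 and 50.5 in the replicates, and COX8 with 101 at rank 3728, from 66.2 and 49.7. All 5 were among the strongest 4293 entries of each replicate. Of these, 3 were nearer to another start, that of CG33932 and Rpp20 at COX6B (18 bp), of Sec3 at COX7B (103 bp) and of IFT52 at COX5B (55 bp). By nearest gene alone complex IV had 2 of 8. COX7A, COX4 and COX7C, without an optimal summit, had pooled entries at ranks 7745, 8801 and 9922.

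In complex V, of the 4 main genes of the membrane part 3 had an optimal summit, of the 4 of the peripheral stalk 2, and of the 3 of the catalytic head and its central stalk 0, beside 26.1% of all protein-coding genes. The last count leaves out subunit genes whose symbols the rule misses. Of the genes so missed, blw, the alpha subunit of the head, had an optimal summit at rank 248, and sun had none. ATPsynE (FBgn0038224, chr3R:14326947-14327735) had a peak at chr3R:14326772-14327207, 43 bp inside the gene, with a signal of 186 at rank 1387. Replicates 3 and 4 gave 108 and 76.4 at ranks 1511 and 1365. ATPsynF (FBgn0035032, chr2R:24599088-24599821) had a peak at chr2R:24599645-24600080 with 142 at rank 2215, and 97.1 and 46.4 at ranks 1828 and 3113. ATPsynC, the gene of the rotor ring subunit (FBgn0039830, chr3R:31216145-31219630), had a peak at chr3R:31219270-31219705 with 108 at rank 3363. Replicate 4 had 67.2 there at rank 1717, and replicate 3 had no entry within 100 bp of it. A second ATPsynC summit, with 103 at rank 3617, had entries of both replicates, 53.6 and 49.4.

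The peripheral stalk genes ATPsynO (99.5, rank 3802) and ATPsynB (98.7, rank 3845) were weak and uneven. ATPsynO had 74.9 at rank 2845 in replicate 3 and 22.9 at rank 10467 in replicate 4, and ATPsynB had 70.7 at rank 3114 and 27.6 at rank 7451. Replicate 4 had a stronger entry, 36.9 at rank 4527, within 1000 bp of the ATPsynO start but over 100 bp from its summit. ATPsynbeta, the catalytic subunit, on chromosome 4, had the highest pooled rank of all main genes without an optimal summit, 4623 with a signal of 87.4. It was the only member among the strongest entries of a replicate, at rank 3271 in replicate 4, that had no optimal summit, and it ranked 6522 in replicate 3. ATPsynCF6, ATPsyngamma, ATPsynD, ATPsynG and ATPsyndelta had pooled entries at ranks 5324, 5624, 7112, 13813 and 24090.

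**Figure D2:**
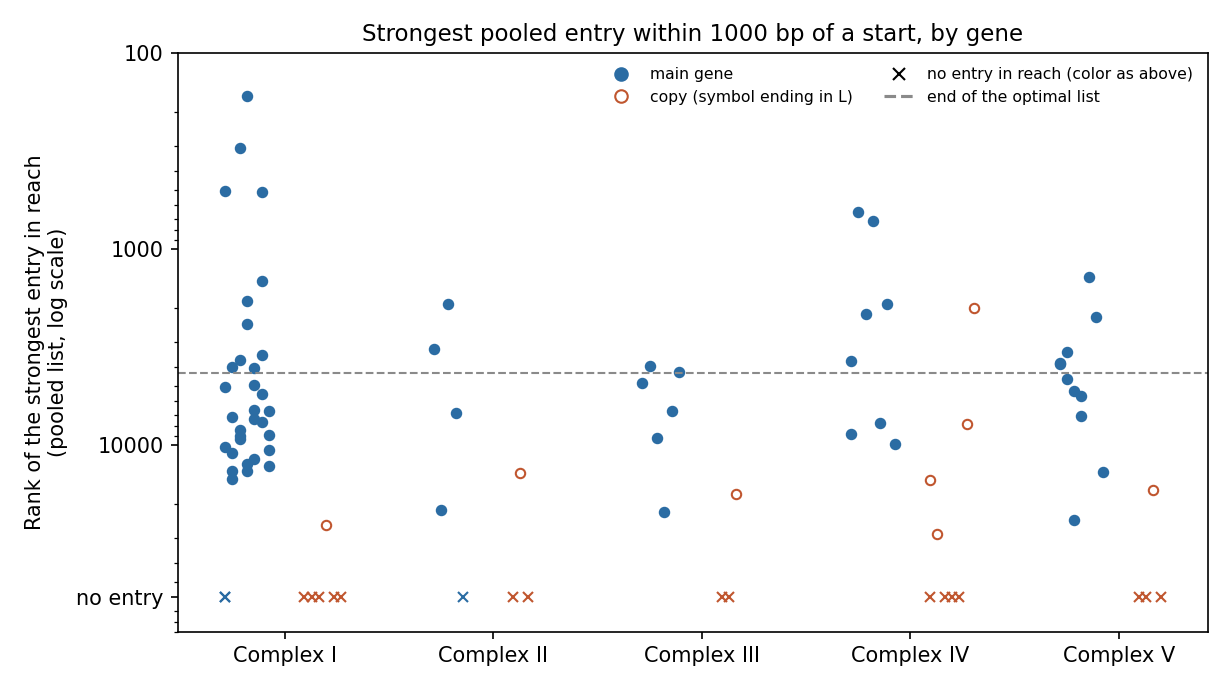
Rank of the strongest pooled entry within 1000 bp of a start (log axis, 1 is the strongest) by complex, with main genes as filled and copies as open circles, a cross for each member without an entry, and a dashed line at the end of the optimal list, rank 4293. ND-MWFE is the highest at rank 166, ATPsynbeta lies just past the line at 4623, and all copies but COX7AL2 lie beyond it.

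The 26 genes were not concentrated among the strongest peaks. The ranks of their strongest summits ran from 166 to 4265 with a median of 2180, beside 1801 for all genes with an optimal summit. The median signal was 144, beside 162. Of the 26, 13 had a summit among the 2146 strongest, beside 58.8% of all genes with a summit, and 2 or 7.69% among the 429 strongest, beside 13.9%. With the 2146 strongest peaks alone, 12 of the 64 main genes had a summit, or 18.8%, beside 15.3% of all protein-coding genes.

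Both replicates had an entry within 100 bp of the strongest summit at 24 of the 26, or 92.3%, beside 95.7% of all genes with a summit. Over these 24 genes the replicate signals followed each other, with a Spearman correlation of 0.804 and a Pearson correlation of 0.885 on log2 values. For the 2345 summits with entries of both replicates among the strongest of all genes the values were 0.805 and 0.862. These are descriptions of peaks of the same libraries, and the libraries shared 1 control. The signal in replicate 3 was 1.80 times that in replicate 4 at the median of the members and 1.52 times over all genes.

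Taking the strongest 4293 entries of each replicate, 17 of the 26 genes were in both, 7 were in that of replicate 3 only and 2 in that of replicate 4 only. Over all 3642 genes with an optimal summit 82.8% were in both, 10.9% were found only in replicate 3 and 5.68% only in replicate 4. The 7 were ND-MNLL, ND-PDSW, SdhA, UQCR-14, UQCR-Q, ATPsynB and ATPsynO, all of them at rank 3232 or weaker. The 2 were ND-13B and ATPsynC, and for ND-13B the entry of replicate 4, at rank 2808 with 49.6, lay within 1000 bp of the start but over 100 bp from the pooled summit.

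**Figure D3:**
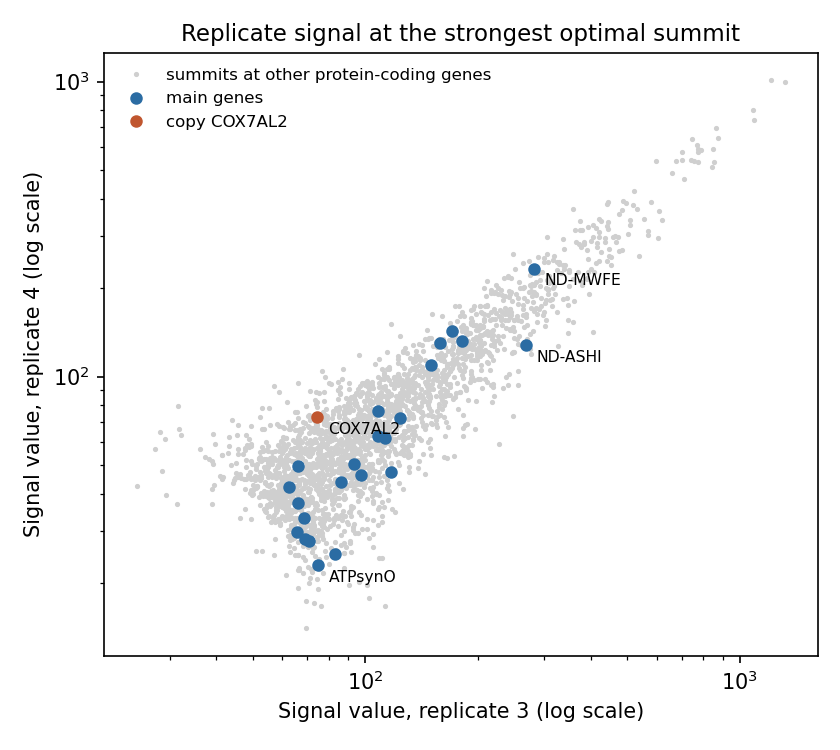
Signal value in replicate 3 (x axis) and replicate 4 (y axis) at the strongest optimal summit of the 24 members with entries of both replicates, on log axes, with main genes in blue, the copy COX7AL2 in orange and the summits at other protein-coding genes in grey. The members run from ATPsynO, at 74.9 and 22.9, to ND-MWFE, at 282 and 232, within the cloud of the other genes.

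The summits lay close to the starts. Of the 26, 16 or 61.5% were within 100 bp of a start, beside 36.2% of all genes with an optimal summit, and the median distance was 79.5 bp beside 146 bp. They ranged from 3 bp at ATPsynO to 852 bp at SdhA. Counted from the nearest of each gene's starts, 22 were upstream, or 84.6%, beside 84.4% of all. The other 4 were downstream (ATPsynO, ATPsynE, ATPsynC and COX7AL2). The 22 include ND-24, COX5A and UQCR-Q, whose summits lay inside the gene, past its first start. At ND-24 the starts on either side were equally far, at 116 bp. By annotation 13 summits fell between genes, 7 in a 5′ UTR, 4 in an intron, 1 in a 3′ UTR of a neighbour and 1 in a noncoding RNA, so none fell in a coding exon. In 20 of the genes there was 1 optimal summit in reach and in 6 there were 2 (ND-ASHI, ND-SGDH, ND-42, COX7AL2, ATPsynE and ATPsynC).

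**Figure D4:**
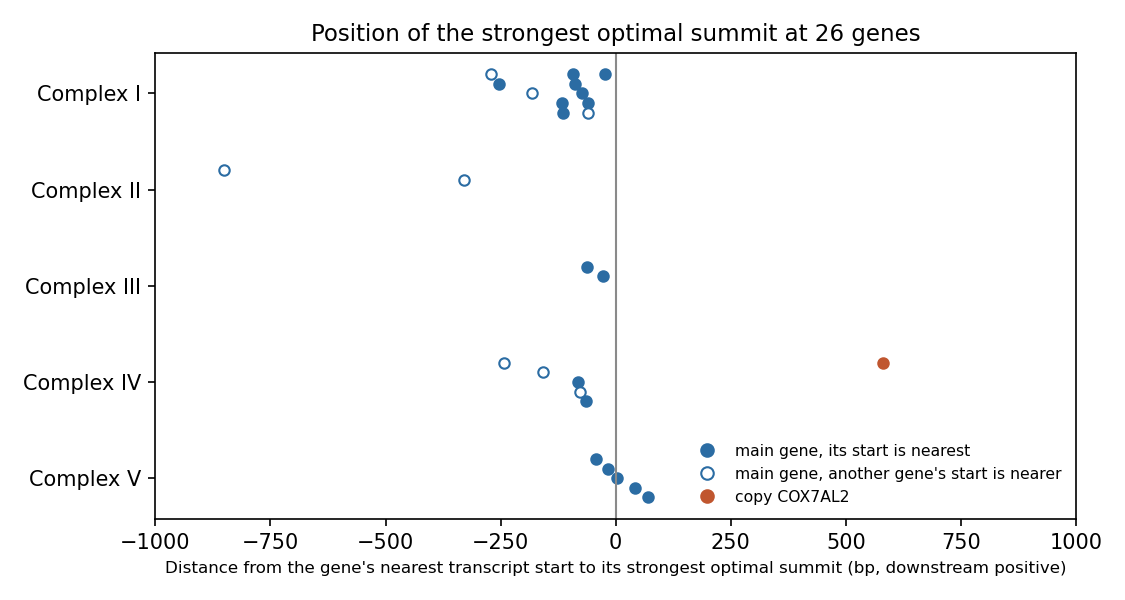
Distance of the strongest optimal summit from the nearest start of the gene, in bp, negative upstream, for the 26 members by complex, with open circles where another gene's start was nearer. Most points lie just upstream of 0, with SdhA at -852 and the copy COX7AL2 at 582 farthest out.

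Many of these genes share their promoter region with a neighbour. Of the main genes 40, or 62.5%, had the start of another protein-coding gene on the opposite strand within 1000 bp, beside 36.9% of all genes. Among those 40 genes 16 had an optimal summit, or 40.0%, and among all genes with such a neighbour 45.3%. Among the 24 main genes without such a neighbour 9 had a summit, or 37.5%, beside 14.9% of all genes without one. These 9 were ND-13B, ND-20, ND-B17, SdhA, UQCR-14, UQCR-Q, ATPsynB, ATPsynC and ATPsynO. All of them ranked 2416 or weaker. Only ND-20 and ND-B17 were among the strongest entries of both replicates, beside 82.8% of all genes with an optimal summit. SdhA, UQCR-14, UQCR-Q, ATPsynB and ATPsynO were so in replicate 3 alone, and ND-13B and ATPsynC in replicate 4 alone. The summit at SdhA was nearer to the start of cer. With no other start at all in reach, 6 of 20 main genes had a summit, or 30.0%, beside 14.8%. The share of main genes was thus close to the background where such a neighbour was in reach and above it where none was. This split was made after values were seen, and the difference was not tested. Fewer copies had such a neighbour, 4 of 24 or 16.7%, and 0 of these 4 had an optimal summit, beside 45.3% of all genes. Among the 20 copies without one, 1 had a summit, beside 14.9% of all genes. Main genes and copies thus differed in this feature, and its part in their difference in summits was not tested.

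The peak files do not say which gene a summit belongs to. For 8 of the 26 genes another gene's start was nearer to the strongest summit. The gene's own start was nearest at 69.2% of the 26, beside 68.0% of all genes with an optimal summit. When each summit counted only for the gene with the nearest start, 18 of the 64 main genes kept a summit, or 28.1%, beside 18.7% of all protein-coding genes, and the copies kept 1.

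The number of annotated starts also differed between the groups. All but 3 of the 24 copies had 1 start, and their median length was 744 bp, beside 1148 bp for main genes and 2166 bp for all genes. Among genes with 1 start, 13 of 32 main genes had an optimal summit, or 40.6%, 0 of 21 copies and 20.5% of all genes. With 2 starts it was 10 of 28 main genes, or 35.7%, beside 36.6% of all.

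Copies stood beside their main genes as follows. Of the 24, 20 have a main gene among the members, and these 20 belong to 18 main genes. In 8 pairs the main gene had an optimal summit and the copy did not, in 11 neither had, in 1 the copy had, and in none both had. Only 1 of these 20 copies had a summit, so at most 1 pair could have had both. The lack of such pairs is therefore not read as exclusion. The 8 were ND-20 with ND-20L, ND-24 with ND-24L, ND-51 with both ND-51L1 and ND-51L2, SdhA with SdhAL, SdhC with SdhCL, UQCR-14 with UQCR-14L, and COX5B with COX5BL. ND-51L1 and ND-51L2 share the main gene ND-51, so these are 7 main genes. COX6AL, COX6AL2, COX6CL and ATPsynepsilonL have no main gene under the rule. Read mapping between a gene and a near-identical copy could be uncertain, and how the authors treated such reads is not given in the sources used here.

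The copy with an optimal summit was COX7AL2 (FBgn0085201, chr2L:2192525-2197912), which has 3 annotated starts. Its strongest peak, at chr2L:2197294-2197402, had a signal of 151 at rank 2004, with 74.4 in replicate 3 and 72.9 in replicate 4, at ranks 2875 and 1492. The summit lay 582 bp inside the gene from its nearest start, and at 200 bp from a start 0 of the copies had one. A second peak at chr2L:2193250-2193685 had 113 at rank 3160 and 77.3 in replicate 3, with no entry within 100 bp of its summit in replicate 4. Its main gene COX7A had no optimal summit.

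Copies and main genes without an optimal summit also differed in the weaker lists. In the pooled list of 30000 entries 61 main genes, or 95.3%, and 8 copies, or 33.3%, had a summit in reach, beside 64.5% of all protein-coding genes. In the whole list of replicate 3 it was 63 main genes and 5 copies, beside 64.2% of all genes, and in that of replicate 4 it was 60 main genes and 9 copies, beside 64.1%. Of the 39 main genes without an optimal summit 36 had a pooled entry, at ranks from 4623 to 24090 with a median of 8824, beside 5355 of the 10303 protein-coding genes without an optimal summit. An entry in both replicates was in reach of 35. In 22 of them a pooled entry lay within 100 bp of a start. Neither count was made over all protein-coding genes.

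Of the 23 copies without an optimal summit 7 had a pooled entry, at ranks from 7833 to 28330 with a median of 16912, and 2 had an entry in both replicates, SdhBL and UQCR-6.4L. COX7AL was the closest to its start: its pooled entry at rank 7833 lay 12 bp from its start, with rank 6020 in replicate 3 and no entry in replicate 4. No entry in any list was in reach of 12 copies, beside 1 main gene. How many of all protein-coding genes had none in any list, or entries in both replicates, was not counted. In the pooled list alone 16 of the 24 copies, 3 of the 64 main genes and 4948 of the 13945 protein-coding genes had none in reach. The files hold no expression values, so whether the copies were silent in these embryos was not tested.

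The letters of the promoters also differed between main genes and copies. Promoters were taken as 250 bases before to 50 after the outermost start, and each word was searched on both strands. GGTCACACT, a core promoter word of Drosophila genes expressed broadly (promoter motif 1), was in 14 of 64 main promoters, or 21.9%, in 1 of 24 copies, or 4.17%, and in 6.05% of all protein-coding promoters. Main genes with an optimal summit held it in 7 of 25 cases, or 28.0%, and those without in 7 of 39, or 17.9%. Over all genes with an optimal summit the share was 9.86%. TATCGATA, the Dref site, was in 9 main promoters, or 14.1%, in 0 of the copies and in 9.36% of all. It was in 2 of 25 main genes with a summit and in 7 of 39 without. Of all genes with an optimal summit 14.6% held it, a larger share than among the 25 main genes with one. With so few cases no difference is read from this.

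Sites are shown with 10 bases on each side, to set their positions beside the summits, for 6 of the 7 main genes with GGTCACACT and an optimal summit and for the 2 with TATCGATA and one. ND-MWFE also holds GGTCACACT, and its site is not shown. Each is read on the strand that carries the word, capitals mark the word, and coordinates are of dm6 from the RefSeq sequence. The first 6 hold GGTCACACT and the last 2 TATCGATA.
ND-B17, chr2L:15751075-15751103: ttaagagtgcGGTCACACTggcggcaaca
ND-PDSW, chr2L:3466069-3466097: ggcacactgcGGTCACACTggcttcgctc
COX5A, chr3R:11819313-11819341: atttaattgcGGTCACACTgcatcttcaa
COX5B, chr2L:6557802-6557830: actttaccgcGGTCACACTgatccatagc
COX7B, chr3L:17425476-17425504: acaacacaacGGTCACACTgttcaacaca
ATPsynC, chr3R:31219778-31219806: ctactgttatGGTCACACTgcgcctattg
ND-MNLL, chrX:7893994-7894021: acaagccgctTATCGATAagtgggcgtc
UQCR-14, chrX:16286216-16286243: gagtgcgataTATCGATAggtgcagtgt

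The word started 15 bp before the outermost start at ND-B17, 9 bp after it at COX7B and 12 bp after it at COX5B, in the direction of the gene. It started 36 bp before the start at COX5A, 78 bp before it at ND-PDSW, both on the opposite strand, and 166 bp before it at ATPsynC. Only at ND-PDSW did GGTCACACT lie within 50 bp of the strongest summit, which is also where the start of msl-2, on the other strand, was 14 bp away. TATCGATA lay within 50 bp of the summit at UQCR-14 and SdhC. Among the 26 summits that is 1 with GGTCACACT, or 3.85%, and 2 with TATCGATA, or 7.69%, beside 2.08% and 4.80% of the 2937 optimal summits in reach of a protein-coding gene.

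GCCAT, the core of the Pho site, was within 50 bp of 2 of the 26 summits, or 7.69%, beside 16.1% of those 2937. AGATGGC, which contains GCCAT on its other strand, was at 1 of the 26, COX7AL2, and at 2.11% of the 2937. In the promoters GCCAT was in 26.6% of main genes, 33.3% of copies and 41.2% of all genes. GAGAG, the word bound by the GAGA factor, was in 15.6% of main genes, 41.7% of copies and 29.7% of all. TATAAA was in 62.5% of main genes, 37.5% of copies and 45.8% of all. The median share of G and C was 34.3% in main promoters, 33.7% in copies and 38.0% in all promoters. Its part in the differences in words between main genes, copies and all promoters was not tested. CGCATGCG, the core of the NRF-1 or Ewg site, and the nuclear respiratory gene element were in 0 of the 88 promoters, beside 0.624% and 0.158% of all. A word is a description of these letters, and its absence from a window draws nothing about the factor.

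**Figure D5:**
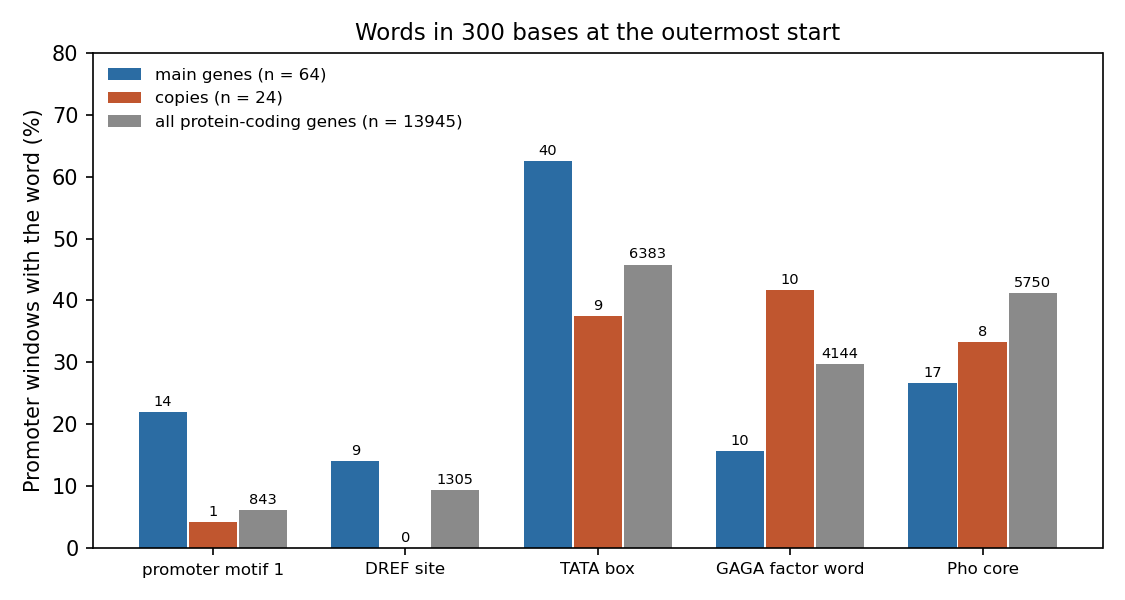
Share of promoters (250 bases before to 50 after the outermost start), in percent, that hold each word on either strand, for main genes, copies and all protein-coding genes, with the number of promoters above each bar. The label promoter motif 1 stands for GGTCACACT, the DREF site for TATCGATA, the TATA box for TATAAA, and the others for the words of the GAGA factor and Pho named above. Promoter motif 1 is at 21.9% of main genes beside 6.05% of all, while the GAGA factor word is at 15.6% of main genes and 41.7% of copies.

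Among 9 further genes that the symbol rule misses, for other subunits of the complexes and for cytochrome c, the mobile carrier between complexes III and IV, 5 had an optimal summit, beside 26.1% of all protein-coding genes. The strongest was blw, the alpha subunit of ATP synthase, with 431 at rank 248, 118 bp upstream, and 230 and 197 in replicates 3 and 4. It forms the catalytic head with ATPsynbeta, which had no optimal summit. The cytochrome c genes had 325 (Cyt-c-d, rank 482, nearer to CG31808) and 238 (Cyt-c-p, rank 881). The 9 genes were not split into main genes and copies, because that split reads a trailing L. The subunit genes levy of complex IV and ox of complex III had 192 and 123, at ranks 1298 and 2762. RFeSP, cype and Cyt-c1 had pooled entries at ranks 4994, 9938 and 10137, and sun had no pooled entry. All 9 had an entry in reach in the whole list of each replicate, beside 64.2% and 64.1% of all genes.

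Of 13 listed genes for enzymes of the citric acid cycle and for pyruvate dehydrogenase, which feeds it, 6 had an optimal summit, beside 26.1% of all protein-coding genes: mAcon1 (412, rank 272), Fum1 (397, rank 307), Idh3g (214, rank 1064), Pdhb (162, rank 1794), Idh3b (158, rank 1870) and kdn (94.0, rank 4131). The summit at Fum1 is the one described at ND-ASHI. Another list held 11 genes for assembly factors, for mitochondrial gene expression and for regulators such as Dref and ewg. Of these 5 had an optimal summit, beside 26.1% of all protein-coding genes. By nearest gene alone 3 of the 11 kept one, or 27.3%, beside 18.7% of all genes. CIA30, an assembly factor of complex I, had 710 at rank 82, though CG7601 started nearer to it. Dref had 326 at rank 480, PolrMT, the mitochondrial RNA polymerase, 116 at rank 3032, ewg 106 at rank 3474 and mtTFB1 101 at rank 3746.

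Beside other families of broadly used genes, the main genes had a share like that of the V-ATPase genes and lower than that of the mitochondrial ribosomal protein genes. An optimal summit was at 13 of 33 V-ATPase genes, or 39.4%, and at 37 of 73 mitochondrial ribosomal protein genes, or 50.7%. The main genes were at 39.1% and all protein-coding genes at 26.1%. The families were taken whole by symbol, with no copies set apart, and all 88 members with their copies were at 29.5%. By nearest gene alone the 2 families were at 21.2% and 28.8%, the main genes at 28.1%, all 88 members at 21.6% and all genes at 18.7%. No test of these differences was run. Over the chromosome arms the main genes with an optimal summit were 4 of 12 on 2L, 3 of 11 on 2R, 6 of 13 on 3L, 6 of 14 on 3R and 6 of 12 on X, beside between 25.2% and 27.5% of all genes on each of these arms. On chromosome 4 it was 0 of 2, beside 21.2%.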

How the data were processed

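Peak lists on dm6 were used. Per the texts deposited with them, the authors called peaks in replicate 3, replicate 4 and their pooled reads against 1 shared control file, and kept an optimal list by the irreproducible discovery rate. The signal value of each peak is the deposited one, and it was used to rank entries within a list and, between replicates, only to describe how their values followed each other. For the aligner, the caller and its thresholds nothing is stated in the labels or texts used, and lists on dm3 were not used. Depth is unknown, so no counting interval is given.

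Transcript starts came from Ensembl release 115, and sequences from the RefSeq genome of release 6, whose arm names and lengths were checked against the lists. A summit was assigned to every gene with a start within 1000 bp, and summits of different lists were matched within 100 bp. Coordinates are 1-based. Motifs were exact words searched in 101 bases at summits and in 300 bases at promoters. The counting scripts were checked on planted summits (python 3.11.15, numpy 2.4.6, scipy 1.17.1, matplotlib 3.10.9).

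Full values are given for the 3 strongest members of each complex with an optimal summit, and for every copy with one, and the other members are given by rank. The members, lists and motifs were chosen with earlier results of these data known, and the splits by neighbour, by number of starts and by subunit role were added after values were seen. With 1 group of 2 replicates no test was run. The alternatives were other distances, lists, replicates, starts, gene assignments and windows. Nc73EF and tam matched no annotated symbol.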

Additional observations from a re-analysis of the deposited data

How the results depend on the processing

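The share of main genes with an optimal summit stayed above that of all protein-coding genes in every alternative tried, but the counts moved with the list. At 200, 500 and 2000 bp 22, 24 and 32 main genes had a summit (34.4% and 37.5% at the first and second), with 17.5%, 23.2% and 30.8% of all genes and 0, 1 and 2 copies. In the 2146 strongest optimal peaks it was 12 main genes (18.8%) and 13 members (14.8%), beside 15.3% of all genes. The pooled list gave 69 members, 61 main genes, 8 copies and 64.5% of all genes. The whole list of replicate 3 gave 68, 63, 5 and 64.2%, and that of replicate 4 gave 69, 60, 9 and 64.1%. By nearest gene 19 members had a summit, beside 18.7% of all genes, and by the outermost start 26, beside 24.4%. Without replicate 3 it was 20 members (22.7%), 19 main genes (29.7%) and 1 copy, beside 25.5% of all genes. Without replicate 4 it was 24 members (27.3%), 23 main genes (35.9%) and 1 copy, beside 26.2%. The share of all 88 members was thus below that of all genes without replicate 3 and in the 2146 strongest peaks. With copies named by the last letter alone, 1 of 21 copies and 25 of 67 main genes had a summit. Of the other counts, for single complexes, replicate matching and words, 31 moved by more than 1.5 times and 42 by at most that or not at all. In the 2146 strongest peaks complexes I, III and V fell to 6, 0 and 1 genes, by nearest gene complexes II and IV fell to 0 and 2, and without replicate 3 complex III fell to 0. Entries of both replicates lay within 50 bp of the summit at 16 of the 26 genes. No paired analysis was possible because there is only 1 group. The signal scale and read depth are unknown, so a gene without an entry was not detectable here and is not shown to be unbound.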
